A study of Mus musculus with 31 samples.

Results

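Glutathione peroxidases and peroxiredoxins are the enzymes that reduce hydrogen peroxide and lipid peroxides, and 10 of their genes are described here in mouse colon: Gpx1, Gpx2, Gpx3, Gpx4, Gpx7, Gpx8, Prdx1, Prdx3, Prdx4 and Prdx6. Prdx2 and Prdx5 were tested too, but are counted below among the other genes of peroxide production and removal. The members are all probes whose gene name in the array files is one of these symbols, a list drawn up with earlier results of these data known, which gave 15 probes for 10 genes among 19797 genes tested. The study asked how E171, the food-grade titanium dioxide used as a white colourant, acts on gene expression in the distal colon during chemically induced colorectal cancer. BALB/c mice of both arms received azoxymethane, a colon carcinogen, and dextran sodium sulfate, which inflames the colon. From the first day of dextran sodium sulfate on, the CRC arm was gavaged with water, and the CRC + E171 arm with E171 at 5 mg/kg body weight per day, and colon RNA was taken at 2, 7, 14 and 21 days. No mice without carcinogen are part of the comparison, so every value below was measured on a background of azoxymethane and dextran sodium sulfate. Each group held 2 males and 2 females, except CRC at 21 days with 1 male and 2 females, giving 31 one-colour arrays. The study's methods describe separate young mice, sampled by sex at each day, and the labels do not give the age at sampling. The treatment protocol field of the labels names water gavage for every sample, those of the CRC + E171 arm included, and the arms here follow the sample titles and the study's methods.

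Glutathione peroxidases take electrons from glutathione. Gpx1 is the general cytosolic enzyme and Gpx2 the form typical of gut epithelium. Gpx3 is secreted, and Gpx4 reduces lipid hydroperoxides within membranes and so holds back ferroptosis. These 4 carry selenocysteine in their active site. Gpx7 and Gpx8 carry cysteine there and lie in the endoplasmic reticulum, where they serve protein folding. Peroxiredoxins use a reactive cysteine and are mostly recharged by thioredoxin. Prdx1 is cytosolic, Prdx3 mitochondrial and Prdx4 resides in the secretory pathway. Prdx6 is the 1-cysteine member, recharged through glutathione, and also acts on phospholipids.

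Values are log2 signals relative to the 75th percentile of each array. One unit is a doubling, and levels of different genes cannot be compared because probes differ in brightness. A gene with several probes has their mean. A difference was called where the fold change was at least 1.5 with an unadjusted limma p below 0.05, and separately where the Benjamini-Hochberg adjusted p was below 0.05. The arms of each day lay on different array slides, so at a single day the effect of E171 and that of slide cannot be told apart. The study's methods name a log2 fold change of 1.5, a stricter limit, under which no member was called at any day. The 15 probes were above background on all 31 arrays, except that a second, dim Prdx4 probe was so on 30 of 31, and none was saturated.

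Some arrays carried the signal of other tissues, and this touches several members. The value of a marker list on an array is the median over its genes of log2 signal minus the gene's mean. Colonocyte markers were far down on CRC 7 days male 1 (-7.56), CRC 7 days male 2 (-3.75) and CRC + E171 14 days male 2 (-2.49), against -0.24 or more on the other 28 arrays, and the neutrophil list was high on the same 3 (5.00, 6.11 and 5.95). CRC 7 days male 1 was also high in skeletal muscle genes (7.17). The squamous list, with 3 of 5 genes tested, was high on CRC + E171 14 days male 2 (7.97), CRC 7 days male 1 (7.93), CRC 21 days female 1 (7.70) and CRC + E171 21 days female 1 (4.99). The fibroblast list was highest on the 3 arrays low in colonocyte markers (1.10, 1.05 and 1.001, against 0.43 or less elsewhere), and the endothelium list on CRC 7 days male 2 (1.75). The distal colon Hox genes were low on CRC + E171 14 days female 1 (-5.66), CRC + E171 14 days female 2 (-4.77) and CRC + E171 7 days female 2 (-4.32), against -1.41 or more elsewhere. Pancreatic acinar genes were high on 5 arrays, namely CRC + E171 21 days female 2 (10.74), CRC + E171 2 days female 2 (10.5), CRC 7 days male 2 (8.89), CRC 7 days female 1 (7.57) and CRC 2 days male 2 (5.66), against 0.59 or less elsewhere. The array labelled CRC 14 days male 2 was the only one of 15 labelled male with Xist in the range of the females, and sexes below are as labelled. In bulk tissue, fewer cells of a type and less RNA per cell cannot be told apart.

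**Figure D1:**
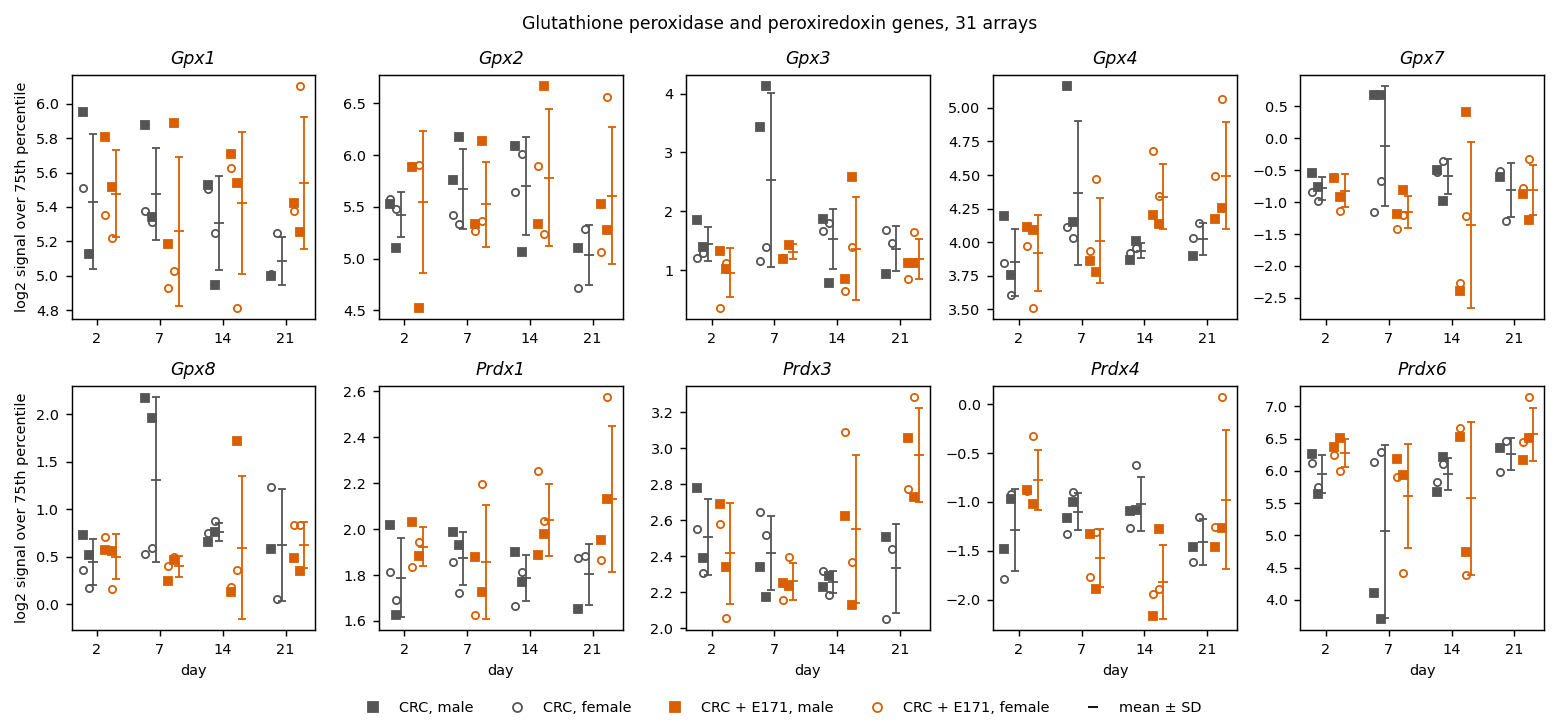
Log2 signal over the array's 75th percentile (vertical axis) of the 10 genes at 2, 7, 14 and 21 days (horizontal axis), with a point per array, filled squares for males, open circles for females, and mean ± SD of each group. The CRC males of day 7 hold the 2 highest values of Gpx3, Gpx7 and Gpx8 and the 2 lowest of Prdx6, with CRC + E171 14 days male 2 next in Gpx3, Gpx7 and Gpx8, and each panel has its own vertical scale.

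The members differed widely in how much they varied among arrays. Gpx3 ranged 13.8-fold from its lowest to its highest array, Prdx6 10.9-fold and Gpx7 8.43-fold. Prdx1 ranged 1.93-fold, the narrowest of the 10, and its SD over the 31 arrays (0.20) was below that of all but 6.38% of genes tested. The SD of Prdx6 was 0.80 and that of Gpx3 0.76, at the 80.5 and 77.99 percentiles of all genes. Gpx1, Gpx4 and Prdx3 lay below the median gene (SD 0.33, 0.36 and 0.31 against 0.46).

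At 7 days the secreted and endoplasmic reticulum peroxidases Gpx3, Gpx7 and Gpx8 were called lower in CRC + E171 than in CRC, but the difference lay in the 2 CRC males. Gpx3 read 3.43 and 4.14 in the CRC males and 1.15 and 1.39 in the CRC females, while the 4 CRC + E171 arrays lay between 1.19 and 1.42. The groups thus overlapped, with the CRC females inside or next to the range of the exposed mice. The fitted difference was -1.22 on the log2 scale (SE 0.48, n = 4 against 4), a 2.32-fold lower signal, with limma adjusted p = 0.22. The exact permutation test over the 8 arrays gave a two-sided p = 0.34, where 0.029 is the smallest this design allows.

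Gpx7 followed the same arrays, with 0.68 and 0.69 in the CRC males, -1.16 and -0.68 in the CRC females, and -1.42 to -0.82 in CRC + E171. Its difference was -1.04 (SE 0.43), with limma adjusted p = 0.24. Gpx8 read 2.17 and 1.96 in the CRC males, 0.53 and 0.60 in the CRC females, and 0.24 to 0.50 in CRC + E171, so its groups did not overlap. Its difference was -0.91 (SE 0.33), with limma adjusted p = 0.21 and an exact permutation p = 0.029. Among males alone the differences were -2.48, -1.69 and -1.71 for Gpx3, Gpx7 and Gpx8, and among females 0.05, -0.40 and -0.11.

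These 3 called members of 10 stand against a background of 12.4% of all genes called at 7 days (2458 of 19797), and no gene passed the adjusted rule (0%). Without the 3 arrays low in colonocyte markers, the difference of Gpx3 became 0.04, that of Gpx7 -0.24 and that of Gpx8 -0.16, none of them called. Without CRC 7 days male 1 alone the 3 values were -0.91, -0.78 and -0.62, and without CRC 7 days male 2 alone -0.68, -0.77 and -0.69, again below the rule. Gpx7 also missed it without CRC + E171 7 days female 1 (-0.95, limma adjusted p = 0.38). Without CRC 7 days female 1, an array high in pancreatic acinar genes, which leaves 1 CRC female beside the 2 males, Gpx3 was -1.68 (limma adjusted p = 0.037) and Gpx8 -1.17 (limma adjusted p = 0.041). In that fit of the E171 effect at 7 days 3977 of all genes were called and 1201 passed the adjusted rule. Within scan day 1, which holds 2 arrays of each group, the differences were -1.09, -1.07 and -1.02. The other scan days hold 1 group each, so they give no value. With scan day as a term, Gpx7 was -0.84 (limma adjusted p = 0.47) and not called. The colonocyte list, with 7 of 7 genes tested, ran from -7.56 to 0.72 in CRC and from 0.03 to 0.63 in CRC + E171 at this day, and the fibroblast list, with 7 of 7 genes tested, from -0.31 to 1.10 in CRC and from -0.30 to -0.04 in CRC + E171. The part that such tissue differences play was not tested.

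**Figure D2:**
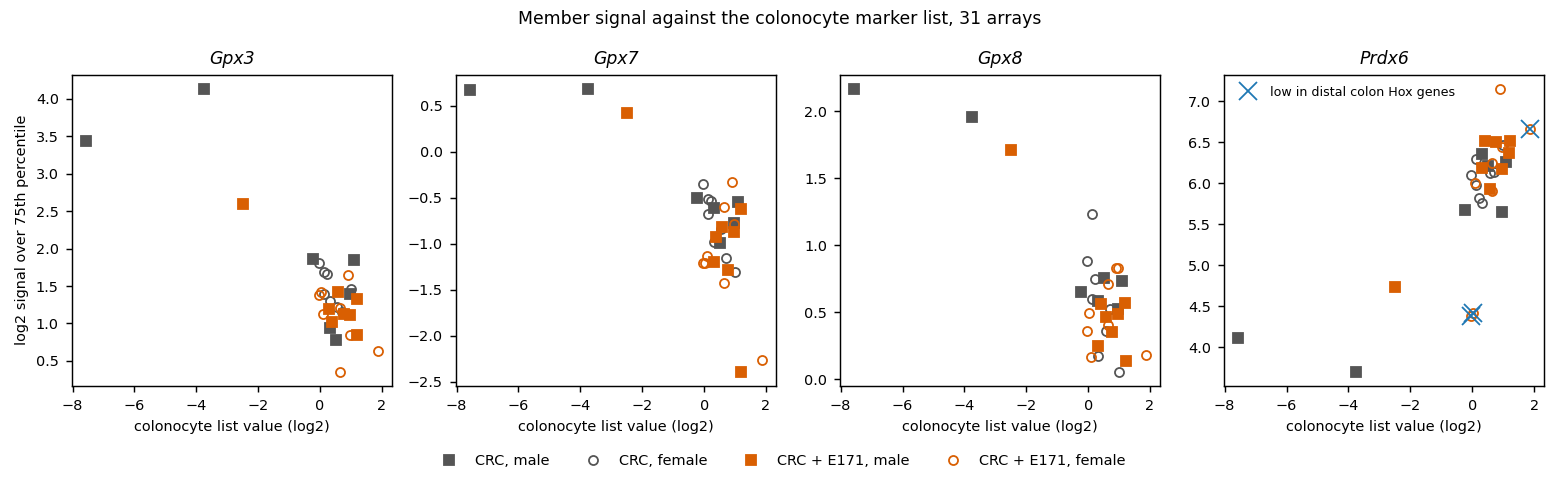
Log2 signal of Gpx3, Gpx7, Gpx8 and Prdx6 (vertical axes) against the colonocyte list value of the same array in log2 units (horizontal axis), 31 arrays, with crosses on the 3 arrays low in distal colon Hox genes in the Prdx6 panel. The 3 arrays under -2 on the horizontal axis hold the 3 highest values of Gpx3, Gpx7 and Gpx8.

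The 3 arrays low in colonocyte markers held the 3 highest values of each of these genes. Gpx3 was 2.59 on CRC + E171 14 days male 2, where the other arrays of that group read 0.64 to 1.39. Gpx8 was 1.71 there against 0.13 to 0.36. Prdx6 ran the other way on these arrays. It read 4.11 and 3.702 on the CRC males of day 7 against 6.13 and 6.30 on the CRC females, and 4.73 on CRC + E171 14 days male 2. It was also low on CRC + E171 14 days female 2 (4.38) and CRC + E171 7 days female 2 (4.42), both low in distal colon Hox genes, while the other array low in those genes, CRC + E171 14 days female 1, read 6.66. Outside these 5 arrays Prdx6 stayed between 5.64 and 7.15.

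The start-site regions of the 3 genes that moved together on these arrays are shown for comparison, each 250 bases before to 50 after the start, on the gene's strand, from RefSeq in build GRCm38.p6. They lie at chr11:54902604-54902903 on the plus strand for Gpx3, chr4:108406664-108406963 on the minus strand for Gpx7, and chr13:113046339-113046638 on the minus strand for Gpx8. They were searched on both strands for TGACNNNGC, the core of the antioxidant response element, for TGACTCA, the AP-1 site, which can overlap it, and for TATAAA, the TATA box. None of the 3 held any of these letters in this window, so no base is in capitals.
Gpx3: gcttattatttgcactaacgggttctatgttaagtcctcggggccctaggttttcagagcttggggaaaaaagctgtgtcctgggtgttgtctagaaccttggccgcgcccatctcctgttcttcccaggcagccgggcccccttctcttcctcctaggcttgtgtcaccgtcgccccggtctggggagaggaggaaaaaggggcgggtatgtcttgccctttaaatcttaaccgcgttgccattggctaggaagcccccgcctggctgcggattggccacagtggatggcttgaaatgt
Gpx7: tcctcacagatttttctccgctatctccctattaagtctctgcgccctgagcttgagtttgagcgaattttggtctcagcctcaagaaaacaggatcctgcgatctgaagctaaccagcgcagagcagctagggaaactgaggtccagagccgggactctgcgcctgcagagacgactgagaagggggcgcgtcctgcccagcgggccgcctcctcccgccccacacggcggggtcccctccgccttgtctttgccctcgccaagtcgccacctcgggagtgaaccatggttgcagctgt
Gpx8: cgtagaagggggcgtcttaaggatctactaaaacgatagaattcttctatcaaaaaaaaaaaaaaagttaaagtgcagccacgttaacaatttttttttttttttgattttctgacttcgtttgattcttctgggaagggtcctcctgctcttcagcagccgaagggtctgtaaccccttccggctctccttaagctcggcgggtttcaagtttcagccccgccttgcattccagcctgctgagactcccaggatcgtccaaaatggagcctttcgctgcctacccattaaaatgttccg

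Of the 9 members with such a region in the table (Prdx6 had none), Prdx1 was the only one with a match to TGACNNNGC, a motif found in 12.4% of the 32841 promoter windows. The match reads TGACTCAGC on the minus strand, starts at base -133 and includes an AP-1 match. A second TGACTCA lies at -237, and TATAAA at -29. TGACTCA was present in 5.2% and TATAAA in 13.6% of all windows. The window lies at chr4:116685349-116685648 on the plus strand, GRCm38.p6, with the matches in capitals.
Prdx1: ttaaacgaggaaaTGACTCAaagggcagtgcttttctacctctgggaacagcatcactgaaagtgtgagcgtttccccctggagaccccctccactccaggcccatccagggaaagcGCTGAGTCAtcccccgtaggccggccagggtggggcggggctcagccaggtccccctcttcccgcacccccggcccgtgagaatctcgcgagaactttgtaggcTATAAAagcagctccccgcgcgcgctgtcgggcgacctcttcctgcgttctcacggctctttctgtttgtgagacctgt

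The other members at 7 days were not called. Gpx2 differed by -0.15 (SE 0.35), Gpx1 by -0.22 (SE 0.24) and Prdx1 by -0.02 (SE 0.14). Gpx4 read 5.17 on CRC 7 days male 1 and 4.03 to 4.15 on the other CRC arrays, against 3.77 to 4.47 in CRC + E171, a difference of -0.36 (SE 0.23). Prdx6 differed by 0.55 (SE 0.51) and Prdx4 by -0.47 (SE 0.27). Without the arrays low in colonocyte markers, Prdx6 turned to -0.60 and Gpx2 to 0.15, and Gpx4 was -0.062. The median difference of the 10 members was -0.29, against -0.01 over all genes, and it was -0.12 without the arrays low in colonocyte markers and -0.44 without those high in pancreatic acinar genes. Only Gpx8 had groups that did not overlap, against 4.84% of all genes.

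**Figure D3:**
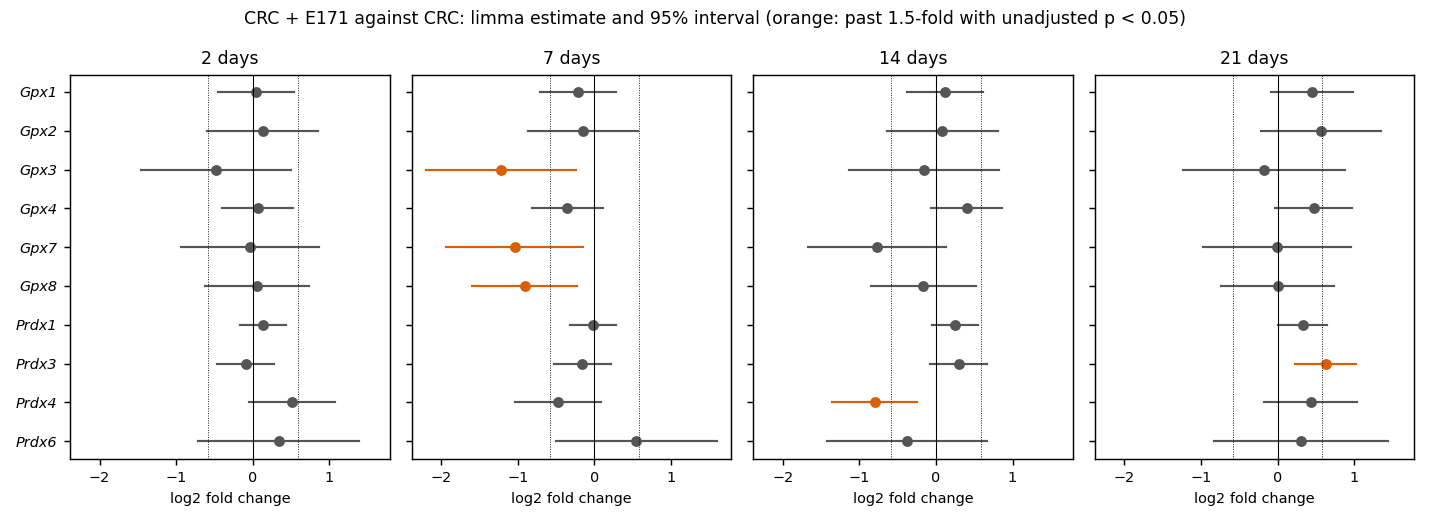
Log2 fold change of CRC + E171 against CRC (horizontal axis) with its limma 95% interval for each of the 10 genes at 2, 7, 14 and 21 days. Orange marks values past 1.5-fold with unadjusted p below 0.05, dotted lines mark 1.5-fold, and only Gpx3, Gpx7 and Gpx8 at 7 days, Prdx4 at 14 days and Prdx3 at 21 days are orange.

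At 2 days none of the 10 genes was called, against 1.76% of all genes (349), and none of all genes passed the adjusted rule (0%). By limma, 0 of 10 members had an unadjusted p below 0.05, against 550 of all genes. At 7, 14 and 21 days 3, 1 and 2 members did, against 16.7, 8.05 and 5.82% of all genes. The largest of the estimates was that of Prdx4, 0.51 (SE 0.27, limma adjusted p = 0.9998). Prdx4 read -1.48, -0.97, -1.79 and -0.92 in CRC and -0.87, -1.02, -0.88 and -0.33 in CRC + E171, so the groups overlapped, and its highest value was on an array high in pancreatic acinar genes. Gpx2 was far lower on CRC + E171 2 days male 2 (4.52) than on the other arrays of that group (5.89 to 5.90). No member had groups without overlap, against 3.85% of all genes.

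At 14 days the endoplasmic reticulum peroxiredoxin Prdx4 was called lower with E171, and the change lay in its dim probe only. The mean of the probes read -1.09, -1.08, -1.27 and -0.63 in CRC and -2.16, -1.28, -1.95 and -1.89 in CRC + E171. All 4 exposed arrays were lower than all 4 controls, with -1.28 next to -1.27 where the groups meet. The difference was -0.80 (SE 0.27), with limma adjusted p = 0.52 and an exact permutation p = 0.029. It was the only member of 10 called, against 6.35% of all genes (1257), with none past the adjusted rule (0%).

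The probes of Prdx4 are shown because they disagree. The array files place the bright probe, A_51_P200819, at chrX:151764882-151764941 and the dim one, A_55_P2058340, at chrX:151771909-151771968, both on the minus strand of mm9. The first is assigned to the RefSeq mRNA and has 1 of 3 reading frames open over its 60 bases. The second is assigned to a separate Ensembl transcript and has 0 open frames. The exon behind each is not given in the sources used here.
A_51_P200819: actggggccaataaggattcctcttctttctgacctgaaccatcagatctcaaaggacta
A_55_P2058340: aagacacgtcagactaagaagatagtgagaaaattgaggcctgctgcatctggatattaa

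The bright probe, with a median signal of 14058, gave 1.80 to 2.13 in CRC and 1.70 to 2.54 in CRC + E171 at 14 days, a difference of -0.01 (SE 0.24). The dim probe, with a median signal of 141, gave -4.34 to -3.21 in CRC and -6.13 to -5.10 in CRC + E171, a difference of -1.59 (SE 0.42, limma adjusted p = 0.46 over all probes). Across the 31 arrays the probes correlated with r = 0.38. The gene's difference fell to -0.49 with normexp background correction and to -0.58 with scan day as a term, both short of the rule. Without the 3 arrays low in distal colon Hox genes, of which 2 are in the exposed group at 14 days, it was -0.70 with limma adjusted p = 0.9999 and not called. Within scan day 2, with 2 arrays of each group, it was -0.40.

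**Figure D4:**
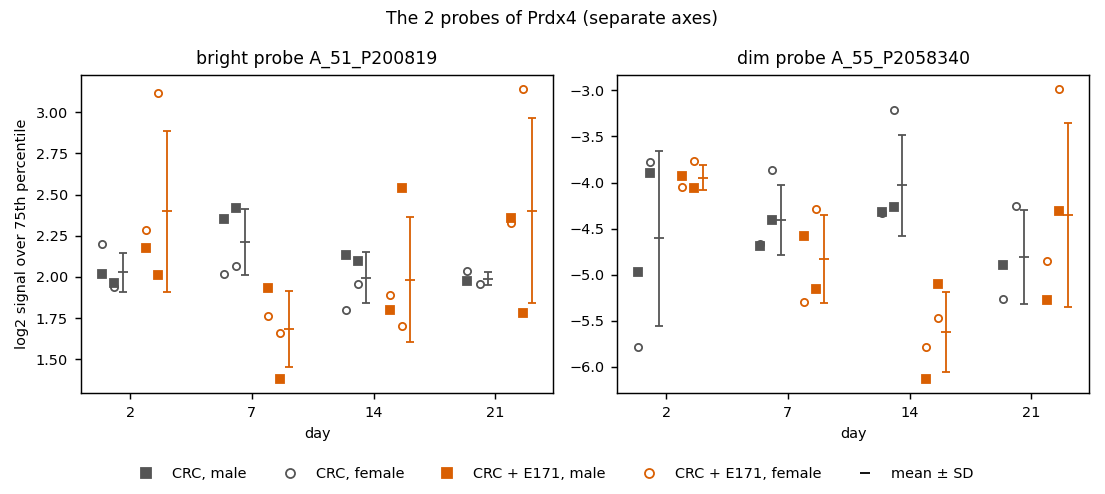
Log2 signal over the array's 75th percentile (vertical axes, separate scales) of the bright probe A_51_P200819 and the dim probe A_55_P2058340 of Prdx4 by day (horizontal axis), a point per array with mean ± SD of each group. At 14 days the groups part on the dim probe and overlap on the bright one.

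Gpx4 was the other member without overlap at 14 days, against 6.02% of all genes. It read 3.87, 4.01, 3.92 and 3.96 in CRC and 4.20, 4.14, 4.68 and 4.34 in CRC + E171. All 4 exposed arrays were higher, by 0.40 on average (SE 0.23), with limma adjusted p = 0.67 and an exact permutation p = 0.029. It was below 1.5-fold and so not called. The exposed values of 4.68 and 4.34 are those of the females low in distal colon Hox genes, and without the arrays low in these genes the difference was 0.23. Gpx7 read -0.50, -0.98, -0.53 and -0.35 in CRC and -2.39, 0.42, -2.26 and -1.21 in CRC + E171. The value of 0.42 was that of male 2, the array low in colonocyte markers, and the other exposed arrays lay below all controls. Its difference was -0.77 (SE 0.43, adjusted p = 0.67) over all arrays. Without the 3 arrays low in colonocyte markers, it was -1.36 with limma adjusted p = 0.025, in a fit in which 400 of all genes passed the adjusted rule. Without CRC + E171 14 days male 2 alone it was the same -1.36, but with limma adjusted p = 0.14. The pass thus also took leaving out the CRC males of day 7. Of the 3 exposed arrays that were left, 2 were low in distal colon Hox genes, whose part in this was not tested. Prdx1 differed by 0.25 (SE 0.14), Prdx3 by 0.29 (SE 0.18) and Gpx2 by 0.08 (SE 0.35).

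At 21 days the mitochondrial peroxiredoxin Prdx3 was called higher with E171. It read 2.51 in the CRC male and 2.05 and 2.44 in the CRC females. In CRC + E171 it read 3.06 and 2.73 in males and 2.77 and 3.29 in females. All 4 exposed arrays were above all 3 controls. The difference was 0.63 (SE 0.20, n = 4 against 3), a 1.55-fold higher signal, with limma adjusted p = 0.85, and an exact permutation p = 0.029, the smallest this design allows. It was 0.38 among males and 0.78 among females, and 0.64 within scan day 1.

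Prdx3 was the 1 member of 10 called at 21 days, against 2.68% of all genes (530), with none past the adjusted rule (0%). It sat close to the fold limit. It was not called without CRC 21 days female 1 (0.49) or without CRC + E171 21 days female 2 (0.52), the array high in pancreatic acinar genes. It was also below 1.5-fold under quantile normalization (0.47), in the authors' values (0.51) and with array weights (0.52). The epithelium list, with 8 of 8 genes tested, was -0.09 to 0.14 in CRC and 0.17 to 0.51 in CRC + E171 at this day, so it moved with Prdx3, and its part was not tested.

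**Figure D5:**
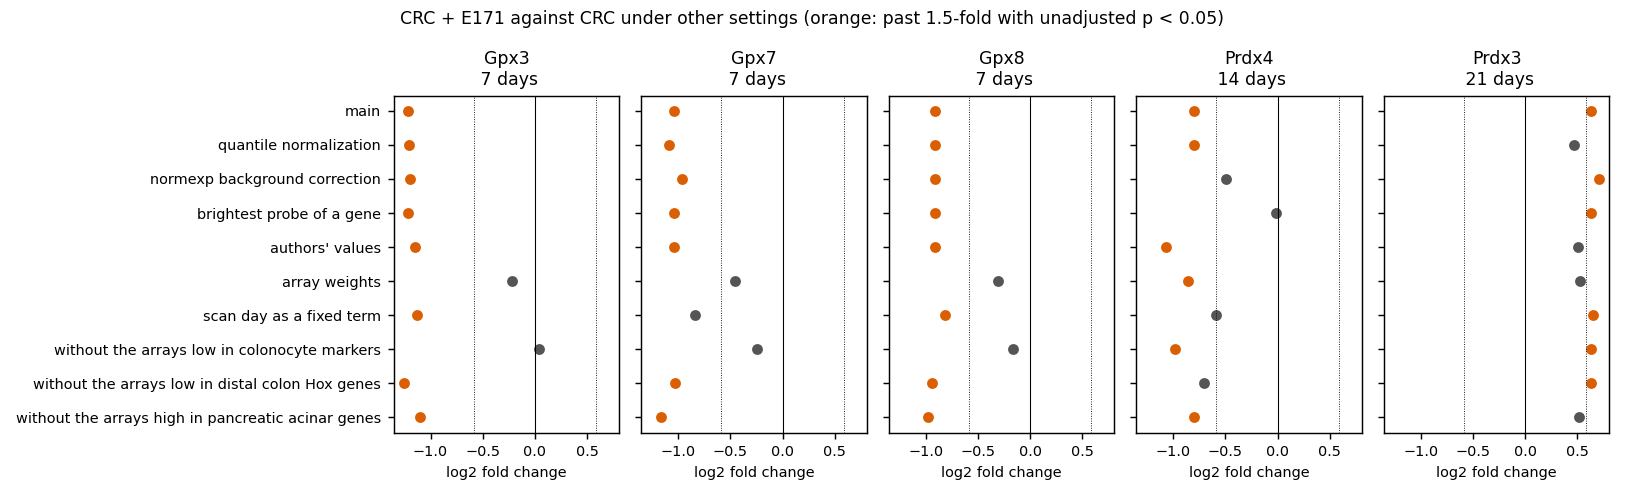
Log2 fold change of CRC + E171 against CRC (horizontal axis) for the 5 called values under the main analysis and 9 other settings (rows), with orange where the value passed 1.5-fold and unadjusted p below 0.05. Gpx3, Gpx7 and Gpx8 move to near 0 without the arrays low in colonocyte markers, and Prdx4 with the brightest probe.

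Of the 10 members, 8 had higher means with E171 at 21 days, and the median difference of the 10 was 0.38 against 0.02 over all genes, of which 52.4% were higher. The median of the 10 was 0.15 without CRC + E171 21 days female 2, the array high in pancreatic acinar genes (-0.026 over all genes), 0.18 with quantile normalization (0.027), 0.21 with array weights (-0.028) and 0.088 in the authors' values (-0.10). Gpx1 read 5.00, 5.01 and 5.25 in CRC and 5.26 to 6.11 in CRC + E171, without overlap, a difference of 0.45 (SE 0.26, limma adjusted p = 0.88, exact permutation p = 0.057). Gpx4 read 3.90, 4.03 and 4.14 in CRC and 4.18 to 5.06 in CRC + E171, also without overlap, a difference of 0.47 (SE 0.24, limma adjusted p = 0.87, exact permutation p = 0.11). With Prdx3 that made 3 of 10 genes without overlap, against 7.98% of all genes. Prdx1 differed by 0.33 (SE 0.16, limma adjusted p = 0.85), below 1.5-fold, with overlapping groups. Its 4 probes gave 0.58 (A_51_P353183), 0.28 (A_55_P2904683), 0.09 (A_66_P113839) and 0.37 (A_66_P137616). The last is dim, with a median signal of 99.8, is assigned to a separate Ensembl transcript, and correlated with the others at r = 0.24 to 0.40. Gpx2 differed by 0.57 (SE 0.38) and Prdx4 by 0.43 (SE 0.29). Prdx4 stood at 0.08 on CRC + E171 21 days female 2, against -1.46 to -1.26 on the other arrays of that group. Without that array, the one of this day high in pancreatic acinar genes, the differences were 0.27 for Gpx1, 0.25 for Gpx2, 0.28 for Gpx4, 0.18 for Prdx1 and 0.082 for Prdx4. It also held the highest value of Gpx1 (6.11), Prdx1 (2.58), Prdx3 (3.29), Prdx4 (0.08) and Prdx6 (7.15) among all 31.

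Over the 4 days together, no member was called for the mean effect of E171, against 1.79% of all genes (354). One gene of all passed the adjusted rule (0.00505%), not a member. Prdx1 was higher by 0.18 (SE 0.07), Gpx3 lower by a difference of -0.51 (SE 0.24) and Gpx7 by -0.46 (SE 0.22), with limma adjusted p between 0.49 and 0.50. The values of Gpx3 and Gpx7 include the CRC males of day 7, with differences of -1.22 and -1.04 at that day. At 2, 14 and 21 days Gpx3 differed by -0.48, -0.16 and -0.18, and Gpx7 by -0.04, -0.77 and -0.002. By limma, 3 of 10 members had an unadjusted p below 0.05, against 1983 of all genes. The same slide never held both arms of a day, so slide and E171 cannot be told apart in the values of single days. Slides of the 2-day and 14-day mice and slides of the 7-day and 21-day mice could be compared with slide as a term. In those slides of 2 and 14 days no member was called, against 2.28% of all genes (452), and in those of 7 and 21 days none against 4.46% (882), with no gene past the adjusted rule in either (0%). With array weights 840 of all genes passed it in the slides of 2 and 14 days, Gpx4 among them (0.36, limma adjusted p = 0.045), and without the arrays high in pancreatic acinar genes 164 did in those of 7 and 21 days. By limma, 0 of 10 members had an unadjusted p below 0.05 in either set of slides, against 1053 and 1853 of all genes. Prdx1 was 0.19 (SE 0.10) and 0.14 (SE 0.11) higher in these 2 sets. Arm was tied to the column of the slide, so a column effect and the effect of E171 cannot be told apart.

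Whether the effect of E171 differed between days was tested directly. No gene passed the adjusted rule (0%). By limma, 2 of 10 members (Prdx4 and Prdx3) had an unadjusted p below 0.05, against 1293 of all genes (6.53%). Among the members, Prdx4 had the smallest p (limma adjusted p = 0.72), its difference moving from 0.51 at 2 days to -0.80 at 14 days. In order of day, the bright probe alone gave 0.37, -0.53, -0.01 and 0.41, and the dim probe 0.65, -0.42, -1.59 and 0.45. Prdx3 followed (limma adjusted p = 0.72), from -0.16 at 7 days to 0.63 at 21 days.

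Among the members, Prdx6 had the widest span of day means. Over both arms its mean was 6.11 ± 0.30 (SD, n = 8) at 2 days, 5.34 ± 1.07 (n = 8) at 7 days, 5.76 ± 0.82 (n = 8) at 14 days and 6.44 ± 0.37 (n = 7) at 21 days. Between 7 and 21 days, compared within slides, it rose by 1.05 in the estimate (SE 0.35, limma adjusted p = 0.22), which did not pass the adjusted rule. Of the 8 arrays of day 7, 3 read 4.11, 3.702 and 4.42, and these were low in colonocyte markers or distal colon Hox genes, while the day medians were 5.92 and 6.44. The estimate was 0.47 without the arrays low in colonocyte markers and 0.88 without those low in distal colon Hox genes. Neighbouring days overlapped throughout. Prdx3 was 0.32 higher at 21 than at 7 days within slides (SE 0.12, limma adjusted p = 0.25), and Prdx4 lower at 14 than at 2 days by a difference of -0.39 (SE 0.16, limma adjusted p = 0.38). This value of Prdx4 is a mean that includes its dim probe. Gpx3 was 0.72 higher at 7 than at 2 days (SE 0.34, limma adjusted p = 0.46), a value that includes the CRC males of day 7. Arrays of 2 and 14 days lay on other slides than those of 7 and 21 days. Day and slide thus cannot be told apart in comparisons of days not made within slides.

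No member passed the adjusted rule for any comparison of days. The share of all genes that did was 0.096% for differences among the 4 days, 0% for 7 against 2 days, 0% for 14 against 7 days, 0.101% for 21 against 14 days, 0.0202% for 14 against 2 days within slides and 0.0606% for 21 against 7 days within slides. These counts of all genes moved with array weights, from 19 to 2023 among days, from 20 to 748 for 21 against 14 days, from 4 to 1403 for 14 against 2 days and from 12 to 285 for 21 against 7 days. For 21 against 7 days 329 passed without the arrays high in pancreatic acinar genes, and for 14 against 2 days 151 in the authors' values. Leaving out each array in turn gave, in the same order, 3 to 126, 3 to 214, 1 to 101 and 1 to 119. In each of these settings 0 members passed the adjusted rule. At an unadjusted limma p below 0.05 these comparisons held 1, 2, 0, 0, 1 and 2 of the 10 members, against 2867, 2121, 714, 2722, 2225 and 2843 of all genes, or 3.61 to 14.5%, so the counts of members were near the background. Gpx1 and Prdx1 were the steadiest over time. Gpx1 had means of 5.45, 5.37, 5.36 and 5.35 at 2, 7, 14 and 21 days, and Prdx1 of 1.86, 1.87, 1.91 and 1.99.

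Males and females did not differ in any member by the adjusted rule, which 0.0556% of all genes passed (11). That count of all genes was 63 with array weights, 29 with no filter, 22 without the arrays low in colonocyte markers and 6 with a stricter filter, with 0 members in each. The widest estimates were Gpx3, 0.40 higher in males (SE 0.23), Gpx7, 0.31 higher (SE 0.22), and Gpx8, 0.26 higher (SE 0.16). The 3 arrays low in colonocyte markers are all labelled male, and without them the estimates were -0.043, -0.063 and -0.042. By limma, 0 of 10 members had an unadjusted p below 0.05, against 1751 of all genes. The effect of E171 did not differ between sexes by the adjusted rule in any gene (0%), with 0 members and 868 of all genes at an unadjusted p below 0.05. The closest member was Gpx4 at -0.42 (SE 0.22, adjusted p = 0.97). Sex was tied to the row of the slide, so row and sex cannot be told apart.

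Members were compared with each other across the 28 arrays left after setting aside the 3 low in colonocyte markers, over 45 pairs. Of these, 10 were positively related at a permutation p adjusted below 0.05 and none negatively, all with r of at least 0.486. That is 22.2% of the member pairs. The limit of 0.486 is the lowest r of the member pairs that passed, so it was set by the members themselves. Of all pairs of genes on these arrays, 5.31% reached it and 3.32% lay at -0.486 or below, given as a description only. The permutations took the 28 arrays as exchangeable, though they come from 8 groups on several slides. Gpx4 and Prdx1 had Pearson's r = 0.81 (p = 1e-05, adjusted p = 2.2e-04) and Spearman's rho = 0.69 (p = 9e-05, adjusted p = 0.0013), and r = 0.60 without the 2 arrays farthest from the median of Gpx4. Within scan days 1, 2 and 3, r was 0.75, 0.93 and 0.56. Gpx7 and Gpx8 had r = 0.72 (p = 2e-05, adjusted p = 3e-04) and rho = 0.81 (p = 1e-05, adjusted p = 4.5e-04), with 0.73 without the 2 farthest arrays and 0.75, 0.86 and 0.77 within scan days. Here 1e-05 is the smallest p that 100000 permutations can give. Prdx1 and Prdx3 had r = 0.63 (permutation p = 4.5e-04, adjusted p = 0.0051) and rho = 0.46 (permutation p = 0.014, adjusted p = 0.064), which fell to r = 0.33 without the 2 farthest arrays and so rested on them. The arrays share their scaling, so such relations also hold what is common to whole arrays.

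The genes whose signal was most like each member over the 31 arrays are given by Pearson's r, as a description. Gpx7 was closest to Loxl1, an elastic fibre crosslinker (r = 0.91), Chst14, a dermatan sulfotransferase (r = 0.91), and P3h3, a collagen prolyl hydroxylase (r = 0.89). Gpx8 was closest to Syde1 (r = 0.93), Twist2, a mesenchymal transcription factor (r = 0.93), and Tm4sf1 (r = 0.93). Among the genes closest to Gpx3 were Crtap, a partner in collagen prolyl hydroxylation (r = 0.94), and Plaur, the urokinase receptor (r = 0.92). Without the 3 arrays low in colonocyte markers these values fell to between 0.64 and 0.85.

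The mitochondrial Prdx3 was closest to Ndufaf3, an assembly factor of respiratory complex I (r = 0.91), Ndufc2, a subunit of that complex (r = 0.90), and Cox19, an assembly factor of cytochrome c oxidase (r = 0.90), with 0.90, 0.91 and 0.90 over the 28 arrays. Gpx2 was closest to Gpx2-ps1, its pseudogene (r = 0.95), and how far their probes share signal was not tested. Nme1 (r = 0.76) and Cyba, the p22phox subunit of NADPH oxidases (r = 0.75), came next. Prdx6 was closest to Tmem45b (r = 0.92), Prr15 (r = 0.92) and Phlpp2 (r = 0.91). Prdx4, which includes its dim probe, was closest to Slc22a13 (r = 0.93), Ifnab (r = 0.90) and Kcnk16 (r = 0.89). Gpx1 was closest to Ccdc124 (r = 0.91), Tbcb (r = 0.86) and Arpc3 (r = 0.86), Gpx4 to Cnih1 (r = 0.91), Iftap (r = 0.90) and Cyb5a (r = 0.90), and Prdx1 to Tmem242 (r = 0.83), Mrps11 (r = 0.81) and Eny2 (r = 0.81).

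Of 54 other genes of peroxide production and removal, 52 were tested (not Gpx5 and Gpx6), and none passed the adjusted rule in any comparison. At 2 days none was called. At 7 days 5 were called higher and 1 lower, 11.5% against the 12.4% of all genes. Noxa1 and Noxo1, subunits of the epithelial NADPH oxidase, were higher by 1.36 (SE 0.63) and 1.16 (SE 0.41), Duox2, the dual oxidase that makes hydrogen peroxide, by 1.05 (SE 0.45), Gss, glutathione synthetase, by 0.89 (SE 0.32), and Sepsecs, which makes selenocysteine, by 0.76 (SE 0.25). Maff, a small Maf partner of Nrf2, was lower with a difference of -0.88 (SE 0.38). The same CRC males enter these values.

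At 14 days 4 of 52 were called higher and none lower, 7.69% against 6.35%. They were Sesn2, a stress-induced sestrin, by 1.12 (SE 0.27), Gclm and Gclc, the subunits of the rate-limiting enzyme of glutathione synthesis, by 0.90 (SE 0.22) and 0.85 (SE 0.30), and Sephs2, which supplies selenophosphate, by 0.72 (SE 0.24). Of the 4 exposed arrays of this day, 2 were low in distal colon Hox genes and 1 in colonocyte markers, and their part in these values was not tested. Gclm read 2.00 to 2.49 in CRC and 2.75 to 3.74 in CRC + E171, without overlap. Gclc (1.42 to 1.89 against 1.91 to 3.52) and Sesn2 (-0.17 to 0.50 against 0.87 to 2.10) did not overlap either, while Sephs2 did. Of all genes, 6.02% had no overlap at this day. At 21 days 4 were again called higher and none lower, 7.69% against 2.68%, with Gclm among them at 0.60 (SE 0.24). The others were Duoxa2, which matures Duox2, at 1.16 (SE 0.49), the mitochondrial glutaredoxin Glrx5 at 0.76 (SE 0.25) and thioredoxin reductase Txnrd1 at 0.66 (SE 0.24). At this day CRC + E171 female 2 was high in pancreatic acinar genes. The epithelium list also parted the groups (-0.09 to 0.14 against 0.17 to 0.51), and the part of either in these values was not tested. Averaged over the 4 days, Slc7a11, the cystine carrier, and Sod3, the extracellular superoxide dismutase, were called lower with differences of -1.05 (SE 0.49) and -0.59 (SE 0.26), 3.85% of the 52 against 1.79%. Slc7a11 was dim, with group means from -5.98 to -3.67. Both genes had their highest mean and widest SD in CRC at 7 days (-3.67, SD 2.12, and 2.60, SD 1.47). That group holds the males low in colonocyte markers, whose part was not tested. Within slides, 1.92% of the 52 were called for 2 and 14 days (Sesn2, 0.68 higher) and 5.77% for 7 and 21 days (Duox2, 0.80 higher, Noxo1, 0.72 higher, and Ncf1, a phagocyte oxidase subunit, with a difference of -0.73). The values for 7 and 21 days include the CRC males of day 7, which were also high in the neutrophil list. Adjusted p-values of the named genes lay between 0.20 and 0.89.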

How the data were processed

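RNA from mouse colon was hybridised to one-colour 60K arrays. The authors extracted the intensity of each spot with Agilent Feature Extraction 10.7.3.1, and these deposited files hold the mean, background and processed signal per spot. A second deposited table holds the authors' log2 values, whose normalization is not given in the sources used here, and was used as an alternative. Of 56605 probes, 42787 passed a filter (in at least 1 group, well above background on a share of 0.6 of its arrays and a mean log2 signal of at least 4), and 34344 matched a RefSeq gene. Log2 processed signals were centred on each array's 75th percentile (1698 to 6485), and probes of a gene were averaged. Probes well above background were 65.8 to 77.8% per array, and the number of arrays limits precision. All 31 arrays were fitted in limma 3.58.1 (R 4.3.3) with 8 groups, or with slide as a term within slides, and p-values were adjusted by Benjamini-Hochberg over 19797 genes. The fit was tested on simulated data. Members and lists were chosen with earlier results of these data known. Named are all members, listed pathway genes that were called (at most 6 per comparison, by size) and the 3 genes most like each member by Pearson's r, leaving out members and unnamed clones (1 such gene is not reported here). Correlations used 100000 permutations. Promoter windows come from RefSeq (9 of 10 members matched). Alternatives covered normalization, background, filters, probe choice, covariates, blocks, weights and each array left out. Settings without arrays of other tissue signal, and scan day as a term, were chosen after seeing the data.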

Additional observations from a re-analysis of the deposited data

Results flagged for a closer look

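In groups of 4 arrays, a value was singled out where its gap to the nearest other array exceeded the critical value of Dixon's test relative to the range of the group. Chance gives about 1 in 20 such flags, and 7 of 70 member and group combinations met it. Gpx1 was high on CRC 7 days male 1 (5.88, against 5.31 to 5.38 on the others of its group), as was Gpx4 (5.17, against 4.03 to 4.15). Gpx2 was high on CRC + E171 7 days male 2 (6.13, against 5.26 to 5.36) and low on CRC + E171 2 days male 2 (4.52, against 5.89 to 5.90). Gpx8 was high on CRC + E171 14 days male 2 (1.71, against 0.13 to 0.36). Prdx4 was high on CRC + E171 21 days female 2 (0.077, against -1.46 to -1.26). Prdx6 was low on CRC + E171 7 days female 2 (4.42, against 5.91 to 6.18). Of the 7, CRC 7 days male 1 and CRC + E171 14 days male 2 were low in colonocyte markers, CRC + E171 7 days female 2 was low in distal colon Hox genes, and CRC + E171 21 days female 2 was high in pancreatic acinar genes.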

How the results depend on the processing

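The number of members called at 7 days, 3 of 10, became 1 when only the groups compared were fitted, and 0 with array weights, with a log2 fold change of 1.5, with the adjusted p, and without the arrays low in colonocyte markers, where Gpx3 turned to 0.041. Without the arrays high in pancreatic acinar genes it was 4, with Gpx4 gained at -0.59, in a fit with 3681 of all genes called and 106 past the adjusted rule. At 14 days, 1 member became 0 with normexp background correction, the brightest probe of a gene, a log2 fold change of 1.5, the adjusted p, scan day as a term, and without the arrays low in distal colon Hox genes, and 2 with array weights or without the arrays low in colonocyte markers (Gpx7 being the one gained). At 21 days, 1 became 0 with quantile normalization, the authors' values, array weights, a log2 fold change of 1.5, the adjusted p, and without the arrays high in pancreatic acinar genes. Within the slides of 2 and 14 days, 0 became 1 without the arrays low in colonocyte markers (Gpx7, -0.67), and within those of 7 and 21 days, 0 became 2 without the arrays high in pancreatic acinar genes and 1 with sex as a covariate. Leaving out each array in turn gave 0 to 1 members at 2 days (157 to 712 of all genes), 0 to 3 at 7 days (920 to 3977), 1 to 2 at 14 days (885 to 2132), 0 to 1 at 21 days (440 to 890), 0 to 2 for the mean over days (221 to 793), 0 to 1 within slides of 2 and 14 days (303 to 822), 0 to 4 within slides of 7 and 21 days (322 to 2484), and 0 in every other comparison. The cause of these changes was not tested.

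Counts of all genes called also moved by over 1.5 times. At 2 days (349) they were 889 with array weights, 700 without the arrays high in pancreatic acinar genes, 681 with the replicate block, 566 with only the groups compared, 565 with no filter, 538 with normexp, 207 with scan day as a term and 59 with a log2 fold change of 1.5. At 7 days (2458) they were 955 with only the groups compared, 840 with array weights, 659 with a log2 fold change of 1.5 and 529 without the arrays low in colonocyte markers. At 14 days (1257) they were 2792 without the arrays low in colonocyte markers, 2635 with array weights, 610 without those low in distal colon Hox genes and 340 with a log2 fold change of 1.5. At 21 days (530) they were 1358 with array weights, 850 without the arrays low in colonocyte markers, 843 with the replicate block, 799 with no filter and 66 with a log2 fold change of 1.5. For the mean over days (354) they were 609 with array weights, 199 with normexp, 127 without the arrays low in distal colon Hox genes and 9 with a log2 fold change of 1.5. Within slides of 2 and 14 days (452) they were 1692 with array weights, 878 without the arrays low in colonocyte markers and 23 with a log2 fold change of 1.5. Within slides of 7 and 21 days (882) they were 2776 without the arrays high in pancreatic acinar genes, 569 with normexp, 531 with array weights, 269 without the arrays low in colonocyte markers and 81 with a log2 fold change of 1.5. The adjusted p left 1 gene for the mean over days and 0 in the other 6.

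Arrays of the same sex and replicate number in both arms deviated together only in part (r from -0.18 to 0.48, median 0.16, with 8 of 15 pairs over 0.1). Whether the numbers pair the arrays cannot be told from these values, and the main fit took the arrays as unpaired. With the replicate block, 1 member was called within slides of 7 and 21 days (Gpx3, -0.75, limma adjusted p = 0.45) against 0 without it.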
